A study of Mus musculus with 90 samples.

Results

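The corticotropin-releasing hormone (CRH) system was followed here through 5 genes in 3 brain regions of male mice after a social challenge. The genes were Crh (ENSMUSG00000049796), Ucn3 (ENSMUSG00000044988), Crhr1 (ENSMUSG00000018634), Crhr2 (ENSMUSG00000003476) and Crhbp (ENSMUSG00000021680). They were taken by Ensembl identifier from a table of 37991 genes, by a rule that used no measured value, and all 5 were present. The table holds 90 RNA-seq libraries in 18 groups. Resident C57BL/6J males, each with a territory after 1 week with a female, were exposed for 5 min to an unfamiliar BALB/c male inside a mesh cage, or, as controls, to that cage with a paper cup in it. Amygdala, frontal cortex and hypothalamus were dissected 30, 60 or 120 min later. A library of a resident that met the intruder is called an intruder library. Of the 18 groups 15 had 5 libraries, the hypothalamus controls of 30 min had 3, and both frontal cortex groups of 120 min had 6. All residents were of 1 sex and strain, had been housed with other males, then alone and then with a female, and had the female removed 3 hours before the test, so these conditions are shared by both arms. In the deposited table, the column names of all 28 libraries of 30 min carry the tag ISO and those of all 62 later ones (30 at 60 min and 32 at 120 min) the tag CERV. The labels do not say what these tags mean, and 30 min and the tag ISO cannot be told apart in any comparison of times. Ages are not given in the sources used here. The design text says that RNA samples were pooled to make libraries without giving a scheme, while the sample labels name 1 animal for each library.

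CRH is a neuropeptide of the paraventricular nucleus of the hypothalamus that drives the release of corticotropin from the pituitary, and it is also made by neurons of the central amygdala and by cortical interneurons. Its main receptor is the G protein-coupled receptor CRHR1, which raises cyclic AMP, while the related receptor CRHR2 binds the urocortins and is the receptor for urocortin 3, encoded by Ucn3. CRH-binding protein, encoded by Crhbp, is a secreted protein that holds CRH and limits its access to the receptors.

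The promoter windows of the 2 receptors and of Ucn3 are shown because the receptors had opposite regional orders and because Ucn3 and Crhr2 moved together between amygdala libraries. Each window holds 250 bases before and 50 bases after the annotated start of the gene in RefSeq, on build GRCm38.p6, and RefSeq windows were found for 4 of the 5 genes, all except Crh. The windows are at chr13:3945300-3945599 on the minus strand for Ucn3, chr6:55132967-55133266 on the minus strand for Crhr2 and chr11:104132531-104132830 on the plus strand for Crhr1. Capitals mark the motif TATAAA.
Ucn3: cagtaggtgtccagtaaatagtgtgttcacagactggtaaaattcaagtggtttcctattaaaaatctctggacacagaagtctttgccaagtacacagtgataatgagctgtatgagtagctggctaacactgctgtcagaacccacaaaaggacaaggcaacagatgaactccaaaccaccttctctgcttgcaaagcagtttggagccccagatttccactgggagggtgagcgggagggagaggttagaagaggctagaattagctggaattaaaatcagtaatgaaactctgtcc
Crhr2: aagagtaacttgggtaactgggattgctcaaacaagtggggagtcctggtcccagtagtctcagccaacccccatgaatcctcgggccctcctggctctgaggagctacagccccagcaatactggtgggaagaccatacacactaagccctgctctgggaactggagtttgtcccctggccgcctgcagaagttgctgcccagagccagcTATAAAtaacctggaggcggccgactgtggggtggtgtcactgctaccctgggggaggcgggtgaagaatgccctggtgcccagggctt
Crhr1: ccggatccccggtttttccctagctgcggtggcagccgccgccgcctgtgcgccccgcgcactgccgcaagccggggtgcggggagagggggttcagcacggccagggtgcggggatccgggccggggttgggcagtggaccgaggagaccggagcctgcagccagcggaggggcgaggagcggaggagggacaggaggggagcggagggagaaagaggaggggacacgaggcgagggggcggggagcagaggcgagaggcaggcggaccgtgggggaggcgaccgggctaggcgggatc
The Crhr2 window had TATAAA on the gene's strand, with its first base 39 bases before the start. The Crhbp window, at chr13:95444782-95445081 on the minus strand, had the same letters 30 bases after the start, and neither Ucn3 nor Crhr1 had them in this window. TATAAA occurred on either strand in 13.6% of 32851 mouse promoter windows of this length. The cyclic AMP response element TGACGTCA, searched on both strands, was in 1.79% of all windows and in 0 of these 4. The Crhr1 window was 75.0% G and C with 31 CG dinucleotides, against a median of 52.7% and 7 over all windows. The other windows had 44.7% (Ucn3), 59.0% (Crhr2) and 48.0% (Crhbp) G and C, with 1, 5 and 9 CG dinucleotides.

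Libraries held 38601039 to 58858458 gene reads. Levels are given as counts-per-million values (CPM) of scaled library size, and, for comparisons between genes, as CPM per kilobase of exon (1320 bases for Crh, 1478 for Ucn3, 2460 for Crhr1, 5115 for Crhr2 and 1800 for Crhbp). The hypothalamus marker score, the mean log2(CPM + 1) of 9 genes such as Avp and Oxt, was 5.32 to 6.33 in hypothalamus and at most 2.40 elsewhere, and the cortex score was 5.72 to 6.21 in frontal cortex and at most 4.56 elsewhere. The list named for amygdala did not set that region apart, with median scores in controls of 3.76 in amygdala and 3.72 in hypothalamus. The central amygdala list did not either (4.62 and 4.68). The basolateral and cortical amygdala list, by contrast, had medians in controls of 5.32 and 2.90, and of 5.18 in frontal cortex. Libraries of different regions often came from the same animal: 28 of 32 animals gave all 3 regions. In frontal cortex 1 library stood apart: 120 min intruder replicate 1 had a hypothalamus score of 1.70, where the 16 controls had 0.17 to 0.50. It exceeded the other 31 frontal cortex libraries in 6 of the 9 genes of that list, among them Oxt with 15.6 CPM against at most 0.685. It was also the highest of the 32 for the amygdala list (3.39, others at most 2.70), the central amygdala list (4.18 and 3.32), the basolateral and cortical list (5.80 and 5.42), the thalamus list (4.42 and 3.97) and the hippocampus list (5.97 and 5.85), among others. Some values that it moved are also given without it. Libraries of other regions stood out on some lists too. Hypothalamus 120 min control replicate 2 had scores of 4.30 for the basolateral and cortical list and 5.65 for hippocampus. Intruder libraries there had at most 3.77 and 5.00. Hypothalamus 120 min intruder replicate 6 had an amygdala score of 4.76 (controls at most 4.08). Amygdala 60 min control replicate 5 had a choroid plexus score of 5.84 (intruder libraries at most 3.26). Because tissue was sequenced in bulk, fewer cells of a type and less RNA per cell cannot be told apart in any value below.

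Crh was present at similar levels in all 3 regions but was far more even in frontal cortex than in hypothalamus. It ranged from 5.38 to 11.2 CPM in frontal cortex (median 7.33, n = 32), from 4.24 to 10.8 CPM in amygdala (median 6.99, n = 30) and from 1.44 to 11.9 CPM in hypothalamus (median 5.19, n = 28). The means were 7.28 ± 1.26, 7.20 ± 2.07 and 5.85 ± 2.92 CPM (SD) in that order. The hypothalamus, where the releasing neurons of the stress axis sit, thus held both the lowest and the highest library of all 90, 8.31-fold apart.

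Ucn3, the ligand of CRHR2, was found in amygdala and hypothalamus and was almost absent from frontal cortex. It ranged from 2.07 to 9.31 CPM in amygdala (median 4.41, n = 30) and from 0.735 to 7.63 CPM in hypothalamus (median 4.20, n = 28). In frontal cortex 26 of 32 libraries had no Ucn3 read, and a count of 0 allows up to 3 reads, which is 0.0691 to 0.0818 CPM in a single library of the 6 frontal cortex groups. The 16 frontal cortex controls held 6 reads together, or 0.00767 CPM of unscaled library size (95% exact Poisson interval 0.00281 to 0.0167, counting error only). The 16 intruder libraries held 37 reads, or 0.0464 CPM (0.0327 to 0.0639), but 31 of these came from the single library that stood apart, described above. The other 2 urocortins were low in all regions: Ucn reached at most 0.696 CPM in amygdala and 0.659 CPM in frontal cortex and was at 0 in 21 of 28 hypothalamus libraries, and Ucn2 reached at most 0.477 CPM in any library.

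The 2 receptors had opposite regional orders. Crhr1, the receptor for CRH, was highest in frontal cortex (25.6 to 42.8 CPM, median 35.6), lower in amygdala (17.4 to 24.0 CPM, median 20.7) and lowest in hypothalamus (7.79 to 11.9 CPM, median 9.59). The ranges of the 3 regions did not overlap in any library. Crhr2, the urocortin receptor, was highest in hypothalamus (4.99 to 8.77 CPM, median 6.87), lower in amygdala (3.12 to 6.56 CPM, median 4.43) and lowest in frontal cortex (0.323 to 2.02 CPM, median 0.950). Without the library that stood apart, the frontal cortex range was 0.323 to 1.47 CPM. Hypothalamus and amygdala overlapped for Crhr2, and frontal cortex lay below both. Per kilobase of exon, Crhr1 exceeded Crhr2 in every library, by a median of 79.9 times in frontal cortex (27.7 to 231, or 48.0 to 231 without the library that stood apart), 9.74 times in amygdala (6.14 to 13.1) and 2.98 times in hypothalamus (2.20 to 4.57).

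Crhbp, the binding protein, was of similar level in frontal cortex (16.3 to 27.2 CPM, median 21.0) and amygdala (8.20 to 29.5 CPM, median 17.4) and lower in hypothalamus (5.20 to 13.2 CPM, median 7.68). The amygdala range was wide enough to take in the whole frontal cortex range and to reach into that of hypothalamus. Per kilobase, the binding protein exceeded Crh by a median of 2.19 times in frontal cortex (1.16 to 3.15), 1.79 times in amygdala (0.579 to 4.90) and 1.04 times in hypothalamus (0.319 to 5.26), so that in the latter regions some libraries had more Crhbp than Crh and others less. On this scale, Crhr1 was the highest of the 5 genes in frontal cortex (14.2 ± 1.63 CPM per kilobase, SD) and Crhbp in amygdala (9.88 ± 3.46) and hypothalamus (4.49 ± 1.09), where Crh was at 4.43 ± 2.21.

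**Figure D1:**
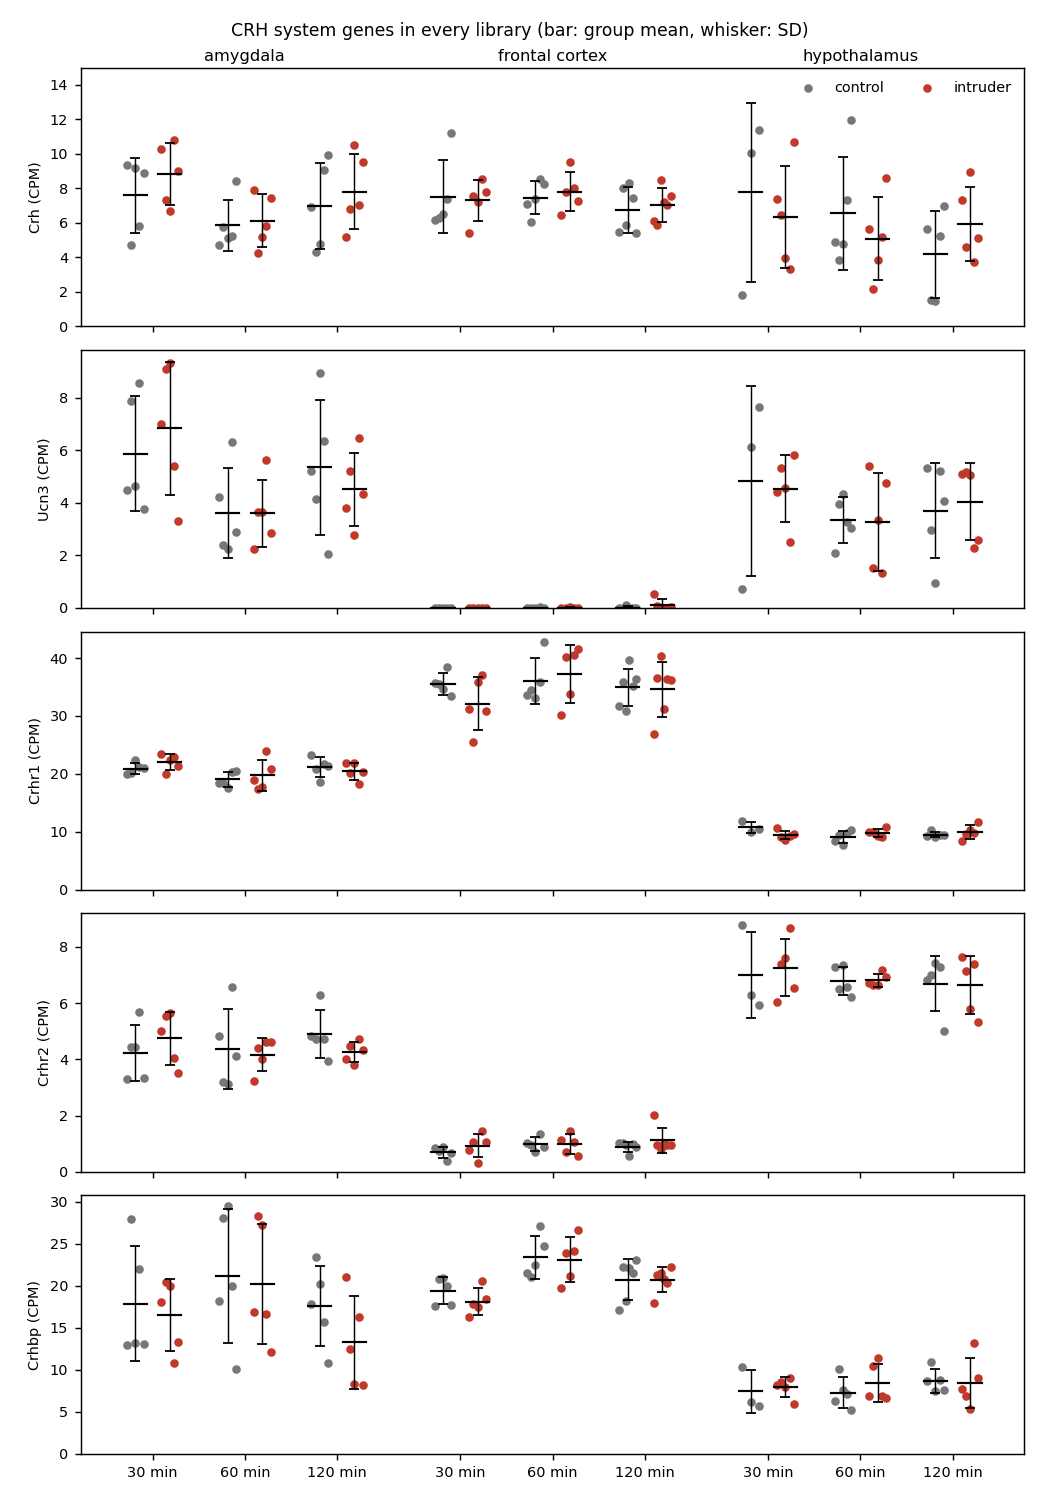
Each point is the CPM of 1 library, in grey for controls and red for intruder libraries, at 30, 60 and 120 min in the 3 regions; horizontal bars are group means and whiskers are SDs. Crhr1 falls from frontal cortex (25.6 to 42.8 CPM) to hypothalamus (7.79 to 11.9 CPM), Crhr2 runs the other way, Ucn3 is near 0 in frontal cortex, and control and intruder points overlap in every panel.

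Regional differences were tested by edgeR (a quasi-likelihood F test), averaged over the 3 times, in the controls and then in the intruder libraries, which come from other animals. All p-values are adjusted (Benjamini-Hochberg) over all genes tested, and a gene is called below 0.05. In controls, 4 of the 5 genes were called between hypothalamus and frontal cortex, 3 between amygdala and frontal cortex and 3 between hypothalamus and amygdala. Both counts against frontal cortex include Ucn3, which passed the filter on low counts only through the other regions. The regions differ so widely that 82.2%, 67.8% and 72.3% of all genes were called in these comparisons, so these shares of the 5 genes are near the background. Sizes therefore say more than counts.

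In controls, Crhr1 was 3.66-fold lower in hypothalamus than in frontal cortex (95% interval 3.41 to 3.89, log2 difference -1.87 ± 0.047 SE, adjusted p = 6.99e-31 by edgeR). It was 1.75-fold lower in amygdala than in frontal cortex (1.65 to 1.85) and 2.08-fold lower in hypothalamus than in amygdala (1.96 to 2.22). Crhr2 was 7.89-fold higher in hypothalamus than in frontal cortex (6.68 to 9.32, log2 difference 2.98 ± 0.12 SE, adjusted p = 2.59e-24 by edgeR). It was 5.24-fold higher in amygdala than in frontal cortex (4.44 to 6.15) and 1.52-fold higher in hypothalamus than in amygdala (1.30 to 1.75). In the intruder libraries the corresponding Crhr2 folds were 6.77, 4.32 and 1.57, and those of Crhr1 were 3.56, 1.67 and 2.13, in the same directions.

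Crhbp in controls was 2.75-fold lower in hypothalamus than in frontal cortex (2.27 to 3.34, adjusted p = 2.10e-12 by edgeR) and 2.45-fold lower than in amygdala (2.0 to 2.97). Amygdala and frontal cortex did not differ beyond the spread of the controls (log2 difference -0.17 ± 0.12 SE, adjusted p = 0.216 by edgeR), but Crhbp was called lower in amygdala in the intruder libraries (-0.32 ± 0.13, adjusted p = 0.0233). Ucn3 did not pass the filter on low counts in frontal cortex alone and entered these fits through amygdala and hypothalamus, where it is high. Its calls in both comparisons with frontal cortex therefore add no support beyond the read counts above. Their p-values are not given, nor is the fitted fold, which rests on the few frontal cortex reads. Between hypothalamus and amygdala Ucn3 was not called (log2 difference -0.32 ± 0.26 SE, adjusted p = 0.265).

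Crh was not called between any regions in controls: the hypothalamus was at -0.29 ± 0.22 SE (log2) against frontal cortex (adjusted p = 0.209 by edgeR), and the 95% interval ran from -0.73 to 0.15. With the animal as a block, since regions of 1 animal share their source, the same difference was -0.47 and was called (adjusted p = 0.0238). In the intruder libraries Crh was called lower in hypothalamus than in frontal cortex (-0.36 ± 0.15, adjusted p = 0.0256) and than in amygdala (-0.38 ± 0.15, adjusted p = 0.0219). At each time, the test of whether the intruder effect differed between the 3 regions did not call Crh (unadjusted p = 0.583, 0.416 and 0.534 at 30, 60 and 120 min by edgeR, with adjusted p-values of 1, 1 and 0.903). The intruder libraries had 5, 4 and 4 of the 5 genes called in the 3 comparisons, against 83.2%, 67.8% and 73.4% of all genes. Both counts against frontal cortex again include Ucn3.

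When the 18 groups are put in order of mean level, most neighbours cannot be separated, and over all genes 1.69% of neighbouring pairs had ranges without overlap. For Crh and Crhbp, 0 of 17 neighbouring pairs had ranges without overlap. For Crhr1, 2 of 17 did, and both were boundaries between regions (frontal cortex above amygdala, amygdala above hypothalamus). For Ucn3 and Crhr2 the single separated pair was the boundary above the frontal cortex groups. No neighbouring pair that belongs to 1 region was separated for any of the 5 genes. Of all 18337 genes put in order in this way, 24.8% had at least 1 separated pair and 3.84% at least 2.

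Within a group, some of these genes varied between libraries more than nearly all genes of their level or above. The spread was taken as the SD of log2 CPM within groups. In hypothalamus it was 0.85 for Crh and 0.88 for Ucn3, and of the genes expressed at least as highly only 0.219% and 0.263% varied more. In amygdala it was 0.59 for Ucn3 (1.13% varied more), 0.52 for Crhbp (0.987%) and 0.40 for Crh (3.25%). Crhr1 was the steadiest of the 5 in amygdala and hypothalamus, with SDs of 0.12 and 0.13, and had 0.17 in frontal cortex, where Crhbp had 0.14.

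**Figure D2:**
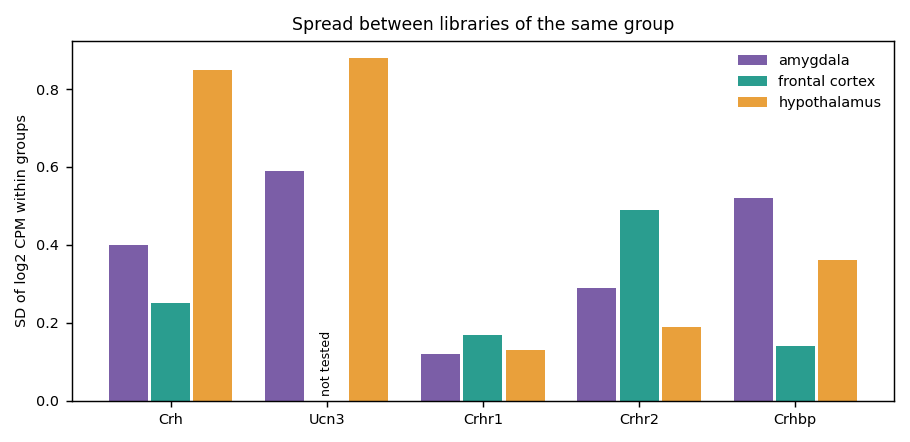
Bars give the SD of log2 CPM between libraries of the same group, for each gene and region. Crh and Ucn3 in hypothalamus (0.85 and 0.88) exceed all other bars, and the bars of Crhr1 lie between 0.12 and 0.17.

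The hypothalamus controls at 30 min show the scale of this spread. Crh was at 1.83, 10.1 and 11.4 CPM and Ucn3 at 0.735, 6.10 and 7.63 CPM in the same 3 libraries. Replicate 2, the low one for both peptides, had the highest Crhr1 (11.9 CPM) and Crhr2 (8.77 CPM) of all 28 hypothalamus libraries. It also had the highest arcuate nucleus marker score (4.33, where the others had 1.42 to 4.31) and the second highest ventromedial score (5.19), while it ranked 21 of 28 for the paraventricular list. The part of the dissection in these values was not tested.

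To describe how the 5 genes varied together, log2 CPM was correlated across the libraries of a region after the mean of each group was taken off, with permutations within groups. Of 26 pairs in the 3 regions, 8 had adjusted p-values below 0.05 for both Pearson's r and Spearman's rho. The libraries of a region share a dissection, and marker scores of neighbouring tissue and of parts of the region are given beside the pairs.

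In amygdala, Crh and Crhbp ran against each other and Ucn3 and Crhr2 ran together. Crh and Crhbp had r = -0.85 and rho = -0.83 (n = 30, permutation p = 1e-05, the smallest that 100000 permutations give, adjusted p = 0.00013). The value was -0.83 without the 2 libraries farthest from the median, -0.84 in controls, -0.87 in intruder libraries and -0.86 with the means of the library index taken off. Ucn3 and Crhr2, ligand and receptor, had r = 0.86 and rho = 0.87 (permutation p = 1e-05, adjusted p = 0.00013), and 0.86 and 0.87 in the 2 conditions. With index means off, r was 0.86, and it was 0.86 without the 2 farthest libraries. Crh and Ucn3 had r = -0.53 and rho = -0.53 (permutation p = 0.00801 for r, adjusted p = 0.0298), with -0.57 without the 2 farthest libraries. Among the 60 min controls, Crhbp was at 18.2, 28.1, 29.5, 19.96 and 10.1 CPM and Crh at 4.69, 5.78, 5.12, 5.22 and 8.41 CPM in the same libraries. The library lowest for Crhbp was the highest for Crh, while the other 4 did not follow one order.

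Crh and Crhbp followed marker lists of neighbouring tissue and of a part of the amygdala itself. The striatum score in amygdala libraries ran from 3.26 to 6.33 in controls and from 3.08 to 5.76 in intruder libraries. Crh rose with it (r = 0.89, rho = 0.90, n = 30, permutation p = 1e-05, adjusted p = 0.000152) and Crhbp fell with it (r = -0.93, rho = -0.91, permutation p = 1e-05, adjusted p = 0.000152). All 6 genes of the striatum list had a positive r with Crh (0.73 for Six3 to 0.90 for Adora2a) and a negative one with Crhbp. Six3, the lowest gene of the list, was at most 0.174 CPM in amygdala with libraries at 0, while Drd1 ran from 19.2 to 178 CPM and Adora2a from 2.95 to 176 CPM. The basolateral and cortical amygdala list went the other way: r was 0.95 with Crhbp and -0.82 with Crh (permutation p = 1e-05 for each, adjusted p = 0.000152), with all 4 of its genes positive for Crhbp and negative for Crh. The hippocampus list had r = 0.77 with Crhbp and -0.77 with Crh (adjusted p = 0.000338 and 0.000253 by permutation). The central amygdala list had r = -0.04 with Crh (permutation p = 0.875), with -0.22 in controls and 0.30 in intruder libraries. That nucleus is a known source of CRH. The list did not set amygdala apart from hypothalamus, so this value cannot show whether Crh follows that nucleus. Within conditions and with index means off, the relations of Crh and Crhbp with the striatum and basolateral scores stayed between 0.81 and 0.96 in size. Ucn3 had r = 0.56 with the hypothalamus list (rho = 0.49, permutation p = 0.00331 for r, adjusted p = 0.0140), with 0.48 without the 2 farthest libraries, and r = -0.56 with the striatum list (rho = -0.53, adjusted p = 0.0159 for r and 0.0274 for rho by permutation). Crhr2 in amygdala had r = 0.46 with the hypothalamus list (rho = 0.38, adjusted p = 0.0378 for r and 0.103 for rho by permutation, 0.31 without the 2 farthest libraries) and r = -0.38 with the striatum list (rho = -0.37, adjusted p = 0.141 for r by permutation). In all, 76 relations with marker scores were computed, 27 had an adjusted p below 0.05 by Pearson's r and 23 by both measures.

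In hypothalamus the 2 peptides ran together and Crh ran against Crhr2 and Crhbp. Crh and Ucn3 had r = 0.74 and rho = 0.67 (n = 28, permutation p = 0.00125 for r, adjusted p = 0.00650), falling to 0.60 without the 2 farthest libraries. Crh and Crhbp had r = -0.68 and rho = -0.69 (permutation p = 0.00015, adjusted p = 0.00130), and -0.73 without those 2. Crh and Crhr2 had r = -0.60 and rho = -0.61 (permutation p = 0.00334, adjusted p = 0.0145), with -0.75 in controls and -0.40 in intruder libraries. With index means off the 3 values were 0.75, -0.71 and -0.58. The arcuate score left a gap in hypothalamus, with 7 libraries (4 controls and 3 intruder libraries) at up to 2.57 and 21 at 3.14 or more, and this gap was narrower than the range of either set. Relations were therefore also computed in the upper set, a choice made after seeing the data. In its 20 libraries from groups with at least 2 members, the 3 pairs had r = 0.67, -0.45 and -0.26 (permutation p = 0.0137, 0.0597 and 0.247, adjusted over 9 relations to 0.0411, 0.0672 and 0.247). For Crh and Ucn3 the adjusted p of rho was 0.0608 there. The upper set spans less of the score, to which Crh itself is related, and leaves out a further library, 30 min control replicate 2, which is alone in its group, so its smaller values cannot be put down to the 7 libraries.

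Crh in hypothalamus did not follow the paraventricular list (r = 0.02, rho = -0.05, permutation p = 0.908), although that nucleus holds the releasing neurons. It fell as the arcuate list rose (r = -0.82, rho = -0.82, n = 28, permutation p = 1e-05 for r, adjusted p = 0.000152) and as the ventromedial list rose (r = -0.76, rho = -0.76, permutation p = 0.0001, adjusted p = 0.000691). Each of the 4 arcuate and 3 ventromedial genes had a negative r with Crh, from -0.90 for Tbx3 to -0.63 for Fezf1. The arcuate score spanned 1.42 to 4.33 in controls and 1.70 to 4.01 in intruder libraries, and the paraventricular score only 5.65 to 6.62 over both. The 3 libraries with the lowest Crh, controls at 1.44, 1.53 and 1.83 CPM, had the 3 highest arcuate scores, and the 7 libraries below the gap held 5.09 to 11.9 CPM of Crh. In the upper set of 20 libraries the arcuate relation of Crh was r = -0.79 and rho = -0.77 (permutation p = 0.00314 for r, adjusted p = 0.0141), and the ventromedial one was r = -0.61 and rho = -0.57 (adjusted p = 0.0469 and 0.0830 by permutation).

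Crhr2 in hypothalamus rose with the ventromedial list (r = 0.87, rho = 0.84, n = 28, permutation p = 4e-05 for r, adjusted p = 0.000338) and the arcuate list (r = 0.83, rho = 0.81, permutation p = 0.00032, adjusted p = 0.00174). Crhbp rose with the arcuate list as well (r = 0.71, rho = 0.68, permutation p = 0.00013, adjusted p = 0.000823). Crhr1 fell as the paraventricular list rose (r = -0.75, rho = -0.74, permutation p = 3e-05, adjusted p = 0.000326), with all 5 genes of that list negative. Without the 2 farthest libraries these 4 values were 0.85, 0.82, 0.66 and -0.70. In the upper set of 20 libraries they were 0.61, 0.45, 0.53 and -0.67, and of these only the relation of Crhr1 had adjusted p-values below 0.05 (0.0141 for r and 0.0171 for rho, by permutation). The narrower range of the score in that set applies here too. Over all 28 libraries Crhr2 also rose with the paraventricular list (r = 0.60, adjusted p = 0.0159 for r and 0.0284 for rho by permutation). With the thalamus list it had r = -0.63 (adjusted p = 0.0381 and 0.0561 by permutation). Crhbp had r = 0.55 with the ventromedial list and -0.53 with the preoptic list (adjusted p = 0.0238 and 0.0224 for r by permutation). How far the dissection sets the levels of these genes was not tested.

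**Figure D3:**
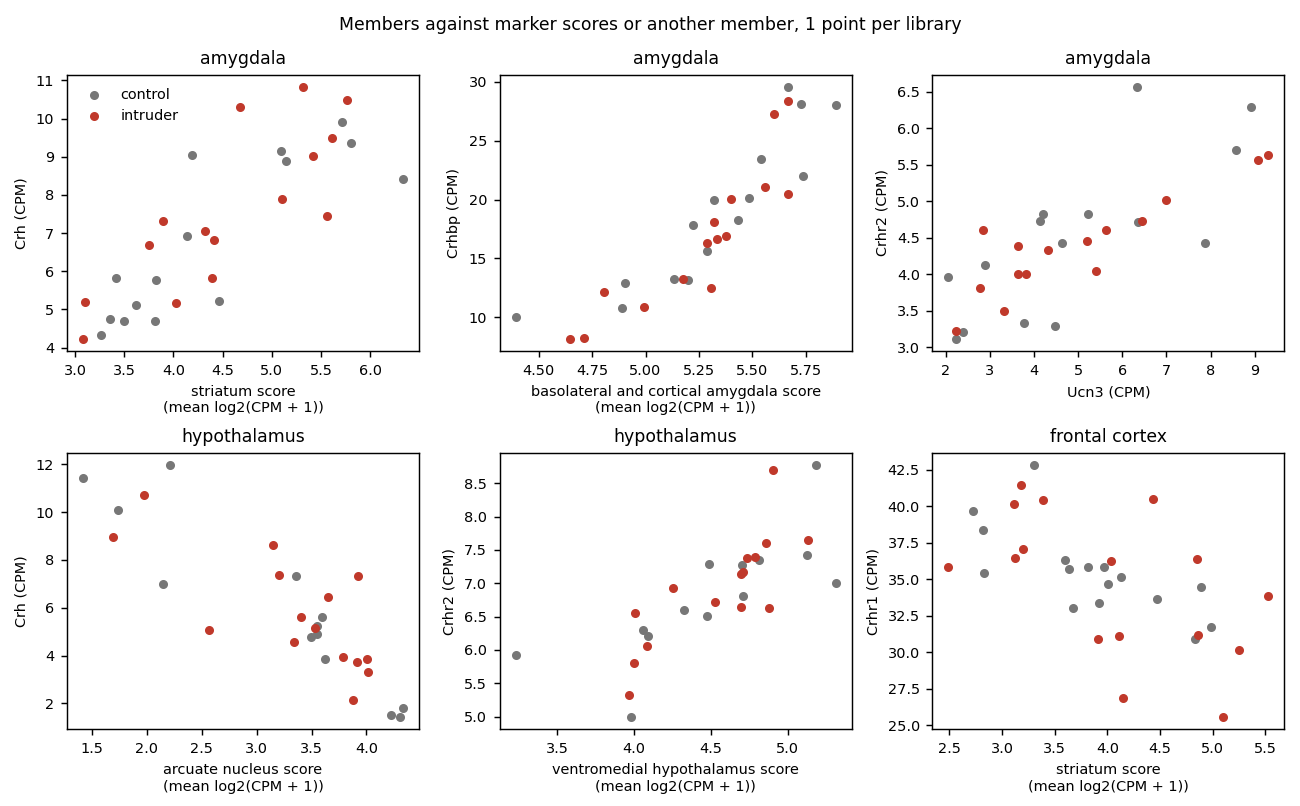
Each point is 1 library, grey for controls and red for intruder libraries, with a gene's CPM against a marker score (mean log2(CPM + 1) of a list) or, in the upper right panel, against Ucn3 CPM. In amygdala Crh rises with the striatum score (3.08 to 6.33) and Crhbp with the basolateral and cortical score, in hypothalamus Crh falls as the arcuate score rises (1.42 to 4.33), and both conditions lie along the same clouds.

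In frontal cortex 2 pairs passed by both measures. Crhr1 and Crhbp rose together (r = 0.65, rho = 0.63, n = 32, permutation p = 0.00021 for r, adjusted p = 0.00136), with 0.58 when index means were taken off. Crhr1 and Crhr2 ran against each other (r = -0.52, rho = -0.52, permutation p = 0.0119 for r, adjusted p = 0.0385), and this fell to -0.41 without the 2 farthest libraries and to -0.41 without the library that stood apart alone. Crhr1 fell as the striatum score rose (r = -0.74, rho = -0.79, permutation p = 7e-05 for r, adjusted p = 0.000532), with all 6 genes of the list negative, and the score ran from 2.72 to 4.98 in controls and from 2.49 to 5.53 in intruder libraries. Crhbp fell with the striatum score as well (r = -0.59, rho = -0.58, adjusted p = 0.00978 for r by permutation). Crhr2 rose with it (r = 0.59, rho = 0.57, adjusted p = 0.0109 for r by permutation) and fell as the cortex score rose (r = -0.62, rho = -0.63, adjusted p = 0.00233 for r by permutation). Crh in frontal cortex had no relation below 0.05 after adjustment with any member or list tested there.

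**Figure D4:**
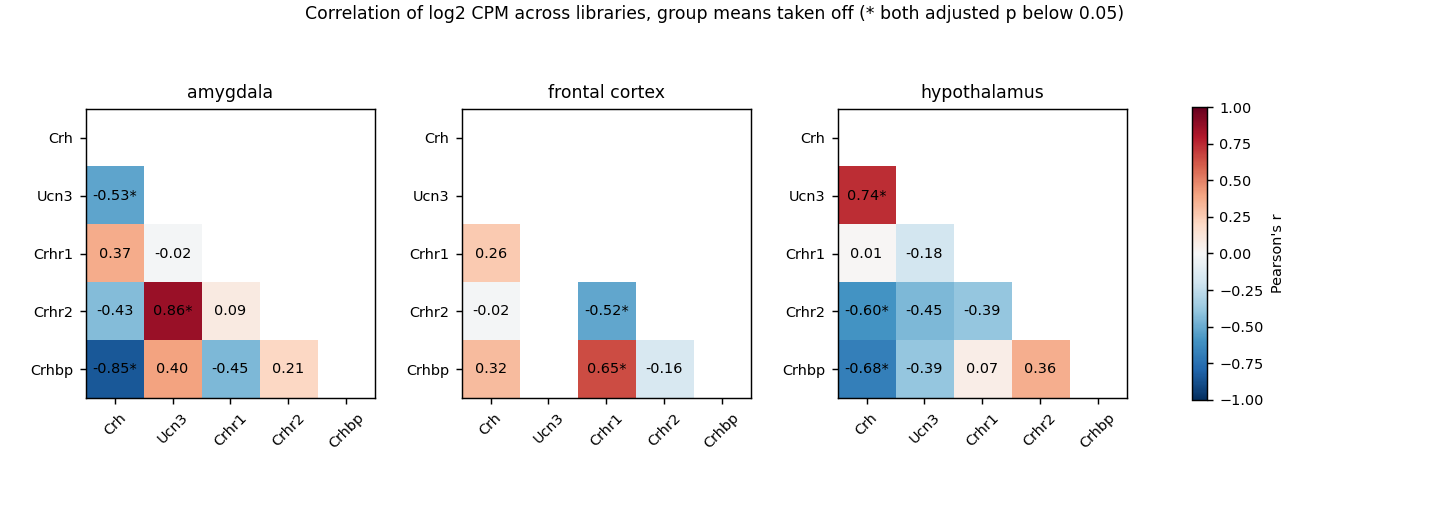
Cells give Pearson's r between 2 genes across the libraries of a region (30, 32 and 28), after group means were taken off; red is positive, blue negative, and an asterisk marks pairs with both adjusted p-values below 0.05. The sign of Crh with Ucn3 is negative in amygdala (-0.53) and positive in hypothalamus (0.74), while Crh with Crhbp is negative in both (-0.85 and -0.68) and 0.32 in frontal cortex.

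For each gene, the genes most like it were taken in the region where its mean CPM was highest, by r across libraries with group means off, as a description without a test. Ucn3 in amygdala was most like Dnah1 (r = 0.93), an axonemal dynein, Irs4 (0.92), an insulin receptor substrate of hypothalamic neurons, and Zfp92 (0.92). Crhr2 in hypothalamus was most like Fezf1 (0.92), a transcription factor of the ventromedial nucleus and 1 of the 3 genes of that marker list, Hap1 (0.92) and Pdyn (0.91), the prodynorphin gene. Crhr1 in frontal cortex was most like Lhx2 (0.92), a cortical transcription factor, Evc2 (0.91) and Dpp9 (0.91). Crhbp in frontal cortex was most like Cyb561 (0.80), Ei24 (0.78) and the cholecystokinin receptor gene Cckbr (0.76). Crh in frontal cortex had the least like neighbours, Calr (0.77) and Pdia6 (0.74), both of them endoplasmic reticulum folding proteins, and Dbpht2 (0.73). The points of 1 region share libraries and dissection.

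The study's main comparison was between intruder and control libraries at each time. It showed no call for any of the 5 genes in any of the 9 comparisons of region and time. Ucn3 was not tested in frontal cortex, where it did not pass the filter on low counts, which left 42 tests. All 5 genes passed in amygdala and hypothalamus and the other 4 in frontal cortex. By edgeR 0 of the 42 were called and 0 had an unadjusted p below 0.05, and DESeq2 and limma voom called 0 as well. At 120 min, 0.538% of all genes were called in amygdala and 0.192% in hypothalamus, and in the other 7 comparisons 0%. In 0 of these 42 comparisons did the intruder and control libraries fall into ranges that do not overlap, where over all genes tested 1.24% of such comparisons did.

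Crh in hypothalamus had the largest of these differences, and its direction was not the same at all times. At 30 min the controls were at 1.83, 10.1 and 11.4 CPM and the intruder libraries at 7.37, 6.44, 3.93, 3.32 and 10.7 CPM, a log2 difference of -0.30 ± 0.52 SE (adjusted p = 1 by edgeR). At 60 min the controls were at 4.89, 3.84, 4.77, 7.32 and 11.9 CPM and the intruder libraries at 5.63, 2.15, 3.86, 5.17 and 8.60 CPM, a difference of -0.38 ± 0.46 SE. At 120 min the controls were at 5.62, 1.53, 1.44, 5.22 and 6.99 CPM and the intruder libraries at 7.32, 4.58, 8.94, 3.73 and 5.09 CPM, a difference of 0.52 ± 0.47 SE (adjusted p = 0.683 by edgeR). The groups overlapped at each time, and the 95% interval at 120 min ran from -0.45 to 1.49. Without control replicate 2 the 30 min difference was -0.76, and without control replicate 5 it was 0.10. Leaving out 1 of the 2 low controls, with the other kept, gave a 120 min difference of 0.30, and leaving out both was not computed. The low control at 1.53 CPM was replicate 2, which had the highest hippocampus and basolateral and cortical scores of the hypothalamus libraries. With the arcuate score of each library as a term, chosen after seeing the data, the 3 differences were 0.59, -0.08 and 0.31 (SEs of 0.35, 0.28 and 0.29), so that the sign at 30 min turned.

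Crh in amygdala was at 9.37, 4.70, 9.16, 5.81 and 8.89 CPM in the 30 min controls and at 10.3, 7.33, 6.68, 10.8 and 9.02 CPM in the intruder libraries. The difference was 0.22 ± 0.24 SE on the log2 scale (adjusted p = 1 by edgeR), 0.07 at 60 min and 0.16 at 120 min (-0.08 with the striatum score as a term). With the striatum score of each library as a term, a setting chosen after seeing the data, the 30 min value was 0.24 ± 0.11 SE (unadjusted p = 0.0458, adjusted p = 0.909, edgeR quasi-likelihood test), against an SE of 0.24 without that term. In frontal cortex Crh differed by -0.04, 0.07 and 0.05 at the 3 times, with SEs of 0.14 to 0.15.

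Ucn3 differed by 0.21, 0.00 and -0.24 (log2) in amygdala at 30, 60 and 120 min, and by -0.10, -0.03 and 0.13 in hypothalamus, with SEs of 0.35 to 0.52. With the marker score as a term, chosen after seeing the data, the hypothalamus values were 0.59, 0.09 and -0.05, of the other sign at each time, and the amygdala value at 120 min was 0.04. At 30 min in amygdala the controls were at 4.49, 7.88, 4.64, 8.57 and 3.77 CPM and the intruder libraries at 6.99, 9.08, 9.31, 5.41 and 3.33 CPM. The ranges of the 2 groups overlapped over most of their length.

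Of the receptors, Crhr1 had the narrowest intervals: over the 9 comparisons its differences lay between -0.18 and 0.10 (log2), and no 95% interval reached beyond -0.38 or 0.26. The smallest unadjusted p of all 42 tests, 0.0609 by edgeR, was that of Crhr1 in hypothalamus at 30 min, where the 3 controls were at 11.9, 9.95 and 10.5 CPM and the intruder libraries at 10.6, 9.17, 8.68, 9.36 and 9.58 CPM. Crhr2 differed by 0.42 ± 0.30 SE in frontal cortex at 30 min, where it was low, with controls at 0.831, 0.744, 0.875, 0.381 and 0.686 CPM and intruder libraries at 0.784, 1.05, 0.323, 1.45 and 1.07 CPM. At 120 min its difference there was 0.32, and 0.06 without the intruder library that stood apart. In amygdala and hypothalamus Crhr2 differed by -0.20 to 0.16.

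Crhbp had its largest difference in amygdala at 120 min. The controls were at 17.8, 23.4, 20.2, 15.7 and 10.8 CPM and the intruder libraries at 21.0, 12.5, 8.29, 16.3 and 8.20 CPM, a log2 difference of -0.41 ± 0.31 SE (95% interval -1.04 to 0.22, adjusted p = 0.534 by edgeR). The ranges overlapped over most of their length. With the striatum score as a term the value was -0.09 ± 0.12 SE. In frontal cortex Crhbp differed by -0.10, -0.01 and -0.01 with SEs of 0.078 to 0.086, and in hypothalamus by 0.10, 0.21 and -0.04.

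**Figure D5:**
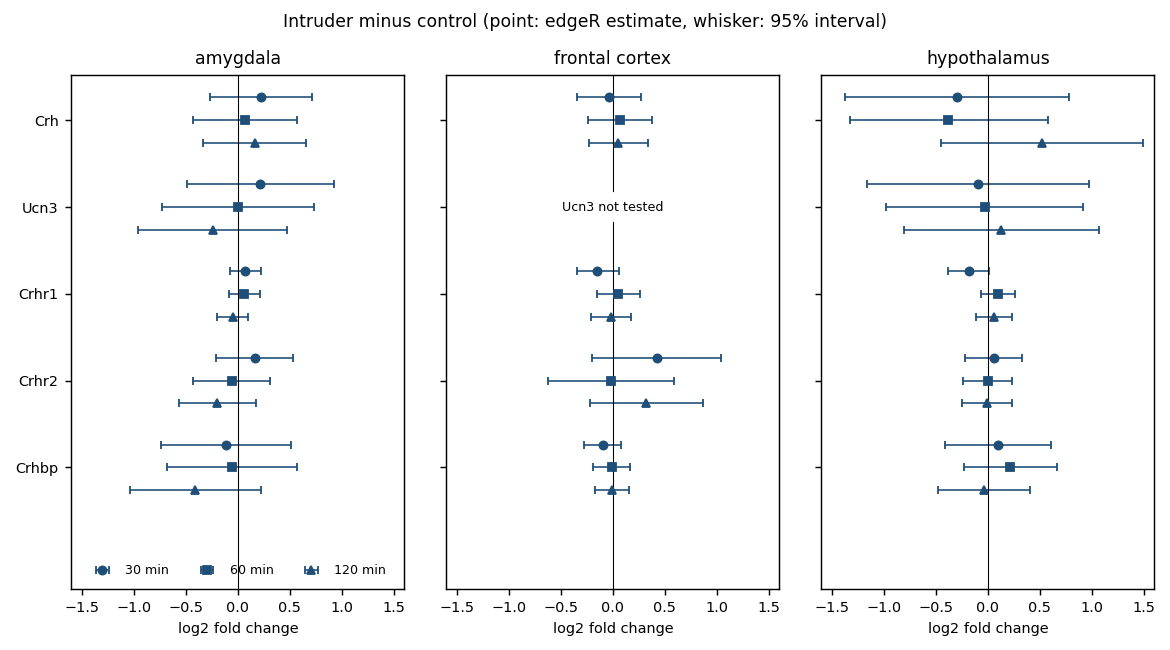
Points give the log2 fold change of intruder against control libraries at 30 min (circle), 60 min (square) and 120 min (triangle) for each gene and region, and whiskers the 95% intervals. No interval lies clear of 0, those of Crh and Ucn3 in hypothalamus are wide (-1.37 to 1.49) and those of Crhr1 narrow (-0.38 to 0.26). Ucn3 in frontal cortex was not tested.

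Averaged over the 3 times, the intruder effect gave 0 calls in 14 tests of these genes by edgeR (0 with an unadjusted p below 0.05), beside 0% of all genes in each region. The largest averages were 0.24 ± 0.17 SE for Crhr2 in frontal cortex (0.15 without the library that stood apart), -0.19 ± 0.18 for Crhbp and 0.15 ± 0.14 for Crh in amygdala. With the marker score as a term, Crh in hypothalamus averaged 0.27 ± 0.18 SE (-0.05 without the term), Ucn3 there 0.21 ± 0.25 (0.00 without it) and Crhbp in amygdala -0.10 ± 0.067, and none was called. Whether the effect differed between times was tested in 14 cases, with 0 calls by edgeR (smallest unadjusted p 0.0758) beside 0%, 0% and 0.0113% of all genes in amygdala, frontal cortex and hypothalamus. Whether it differed between regions was tested in 15 cases, with 0 calls (smallest unadjusted p 0.0575) beside 0% of all genes at each time, and DESeq2 called 0 of these genes in any of the 3 families. The 15 cases include Ucn3 at each time. It was almost absent from frontal cortex, so for that region its tests carry almost no information.

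Crhbp in frontal cortex was called between times, higher at 60 than at 30 min in both conditions, and the column tag changed from ISO to CERV over the same step. Controls were at 17.7, 20.8, 20.9, 19.99 and 17.7 CPM at 30 min and at 21.6, 21.0, 22.5, 27.2 and 24.8 CPM at 60 min, without overlap, a log2 difference of 0.25 ± 0.086 SE (adjusted p = 0.0213 by edgeR). Intruder libraries were at 16.3, 17.9, 17.5, 20.5 and 18.4 CPM at 30 min and at 19.7, 23.9, 21.2, 24.1 and 26.7 CPM at 60 min, a difference of 0.34 ± 0.086 SE (adjusted p = 0.00169), and here the ranges overlapped in part. The score of the cortical interneuron list, whose 5 genes do not include Crhbp, was 5.65 to 5.95 at 30 min and 6.09 to 6.27 at 60 min in controls, without overlap, and 5.53 to 6.08 and 5.99 to 6.22 in intruder libraries. In each condition 4 of its 5 genes had the higher mean at 60 min, and Sst did not overlap. The summed level of the list was 306 to 357 CPM at 30 min and 407 to 436 CPM at 60 min in controls, and 297 to 358 and 402 to 456 CPM in intruder libraries, with no gene at 0. The part of these markers, of the index and of the tag in the difference was not tested.

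At 120 min frontal cortex Crhbp was between the earlier levels, at 20.7 ± 2.43 CPM in controls (SD, n = 6) and 20.7 ± 1.49 CPM in intruder libraries (n = 6). Between 60 and 120 min, which share the tag CERV, Crhbp was not called (-0.17 ± 0.082 SE in controls and -0.16 ± 0.082 in intruder libraries, adjusted p = 0.150 and 0.146 by edgeR). With the striatum score as a term, chosen after seeing the data, this step was -0.18 ± 0.068 SE in both conditions and was called in intruder libraries (adjusted p = 0.0487) but not in controls (0.0685, edgeR), beside 26.7% and 18.7% of all genes called with that term. Over the 3 times together the test was called in intruder libraries (adjusted p = 0.00613 by edgeR) and missed the threshold in controls (adjusted p = 0.0525). Times differed widely in frontal cortex: 35.4% of all genes were called between 30 and 60 min in controls and 45.5% in intruder libraries (17.2% and 22.3% in the higher direction), and 33.4% and 46.1% over the 3 times. Between 30 and 60 min 1 of 4 members tested was called, and over the 3 times 0 of 4 in controls and 1 of 4 in intruder libraries, counts too small to set apart from these shares. With the striatum score as a term, Crhr1 was called as well between 30 and 60 min in intruder libraries (0.28 ± 0.071 SE, adjusted p = 0.00145 by edgeR). Crhbp was called there between 30 and 120 min (0.21 ± 0.069, adjusted p = 0.0311, against 0.130 without the term). Of all genes 47.9% and 21.8% were called in these steps with the term. The 30 and 60 min libraries of frontal cortex shared no first index sequence, and the index could not be separated from the comparison of 30 and 60 min in either condition. The same holds for condition at 120 min in frontal cortex, where all 6 controls carried another first index than all 6 intruder libraries. The call in controls was lost without replicate 1 or 5 of the 30 min group or replicate 5 of the 60 min group (log2 differences of 0.23, 0.23 and 0.20).

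In amygdala the 2 peptides were lower at 60 than at 30 min without passing the test. In intruder libraries Ucn3 went from 6.99, 9.08, 9.31, 5.41 and 3.33 CPM to 2.23, 3.64, 3.65, 5.63 and 2.85 CPM, a log2 difference of -0.91 ± 0.35 SE (adjusted p = 0.111 by edgeR). Crh went from 8.83 ± 1.81 to 6.12 ± 1.54 CPM (SD, n = 5 each), a difference of -0.52 ± 0.24 SE (adjusted p = 0.188 by edgeR). With the striatum score as a term, chosen after seeing the data, both were called (Ucn3 -1.0, adjusted p = 0.0208, and Crh -0.41, adjusted p = 0.0189, edgeR), beside 14.9% of all genes called with that term. In controls the same differences were -0.70 for Ucn3 and -0.38 for Crh, and neither was called with or without the score. Other marker lists moved over the same step in intruder libraries: the central amygdala score went from 4.84 to 5.18 at 30 min down to 4.15 to 4.73 at 60 min, with all 4 of its genes lower in mean, and the hypothalamus score from 1.8 to 2.11 down to 1.40 to 1.78, with 8 of 9 genes lower. The hippocampus score went from 5.76 to 5.89 up to 5.94 to 6.12, with 2 of 4 genes higher, and none of these 3 scores overlapped. In controls the central amygdala score did not overlap either (4.62 to 4.96 and 4.02 to 4.61). The summed CPM of the 3 lists in intruder libraries was 124 to 155, 40.9 to 69.6 and 322 to 412 at 30 min and 82.6 to 117, 22.8 to 89.8 and 346 to 420 at 60 min. Hcrt, the lowest gene of the hypothalamus list, reached 0.103 CPM and was at 0 in some libraries. All 5 intruder libraries of 30 min carried 1 first index and all 5 of 60 min another, and with the index as a term Ucn3 was at -1.03 and Crh at -0.44 (adjusted p = 0.828 and 0.914 by edgeR). The part of these markers, of the index and of the tag was not tested. Between 30 and 60 min, 0.133% of all amygdala genes were called in controls and 7.41% in intruder libraries (0.0232% and 2.7% in the lower direction). Over the 3 times, 0 of the 5 genes were called in amygdala in either condition by edgeR, beside 0.232% of all genes in controls and 12.9% in intruder libraries, and 0 in hypothalamus, beside 0.181% and 1.49%.

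The rest of the pathway was read from a list of 34 genes, of which 33 were in the table: the other urocortins, factors of paraventricular neurons, regulators of Crh transcription, receptor coupling, corticosteroid feedback, and peptides and enzymes of the stress axis. In the 9 comparisons of intruder and control, 0 of 30 to 32 tested genes were called higher or lower by edgeR (beside 0% of all genes in 7 of them, 0.538% in amygdala and 0.192% in hypothalamus at 120 min), with a smallest adjusted p of 0.117 for Creb1 in amygdala at 120 min, and the list's median log2 difference ran from -0.02 to 0.03 against -0.01 to 0.00 over all genes. Between regions, 29 of 33 were called in controls for hypothalamus against frontal cortex, 16 of them higher and 13 lower, beside the 82.2% of all genes called.

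Across the 3 times, 1 of 32 listed genes was called in amygdala controls, 7 of 32 in amygdala intruder libraries, 1 of 32 in hypothalamus controls and 2 of 32 in hypothalamus intruder libraries, beside 0.232%, 12.9%, 0.181% and 1.49% of all genes. Nr4a1, an immediate-early nuclear receptor known to act on the Crh promoter, was lower at 120 min than at 30 min in amygdala and hypothalamus, a step over which the column tag changed as well. In hypothalamus the log2 difference of Nr4a1 was -1.16 ± 0.15 SE in controls (adjusted p = 0.000127 by edgeR) and -1.43 ± 0.13 in intruder libraries (adjusted p = 2.1e-07), and in amygdala it was -0.91 ± 0.16 and -1.03 ± 0.16 (adjusted p = 0.00995 and 0.000135). Between 60 and 120 min, within the tag CERV, Nr4a1 was called in hypothalamus controls (-0.68 ± 0.13 SE, adjusted p = 0.0495 by edgeR) and in none of the other 3 (-0.35 to -0.72, adjusted p = 0.152 to 0.322). In frontal cortex Nr4a1 was at -0.51 and -0.48 between 30 and 120 min and was not called. Fkbp5, a glucocorticoid-induced chaperone, rose over the same interval in frontal cortex, by 0.82 ± 0.16 SE in controls (adjusted p = 0.00405 by edgeR) and 0.45 ± 0.16 in intruder libraries (adjusted p = 0.0465). Nr4a1 in amygdala and hypothalamus, and Fkbp5 in frontal cortex controls, had the smallest adjusted p of the list for this step. Between 30 and 120 min 755 of 17091 genes were called in frontal cortex controls and 3021 in intruder libraries. In amygdala 25 and 2584 of 17277 were called. The index could not be separated from this step in frontal cortex. In frontal cortex 11 of 30 listed genes were called over the 3 times in controls and 13 in intruder libraries, shares near the 33.4% and 46.1% of all genes. With the arcuate score as a term, Crh in hypothalamus controls was at 0.13 ± 0.36 SE between 30 and 120 min, of the other sign than without it. Without that term Crh was at -0.90 ± 0.53 SE in controls (adjusted p = 0.575 by edgeR) and at -0.09 ± 0.46 in intruder libraries (adjusted p = 0.957), beside 0.175% and 1.93% of all genes called.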

How the data were processed

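The authors deposited unnormalized read counts for each gene, from poly(A)-selected, strand-specific, single-end libraries, per the labels' protocols. Per the submitters' processing notes the tools were CASAVA 1.8.2, TopHat2 2.0.8, HTSeq 0.6.1, edgeR 3.2.4 and R 3.0.0, with build NCBIM37. Rows that name no gene were left out, among them reads without a feature (8.63% to 14.46%) and ambiguous reads. Symbols came from Gencode M21 by identifier.

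Each region was fitted with edgeR 4.0.16 in R 4.3.3: filterByExpr, TMM scaling, a trended dispersion, 1 coefficient for each of 6 groups and two-sided quasi-likelihood F tests, with a call at an adjusted p below 0.05. Regions were compared within controls and within intruder libraries, averaged over times. DESeq2 1.42.0, limma 3.58.1 (voom), other scaling, no filter, leaving out libraries and blocks were alternatives. The fit was tested on simulated counts with a single spread for all genes, smaller than that of Crh and Ucn3 in hypothalamus. That test does not show what change could be recovered for these genes. Reads carry no molecular identifiers, so the counting error from depth takes every read as a separate molecule.

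All 5 members were named, with a pathway list and the 3 genes most like each member. The members belong to the system by name and not by their values, but they, the lists and the naming rules were chosen with earlier results of these data known. Replicates are animals by label. No 2 libraries of a group matched within sampling noise (183 pairs, chi-square per degree of freedom of 4.38 to 117). Equal replicate numbers did not pair libraries: correlations of same-numbered libraries ran from -0.68 to 0.67, and in no set did every pair exceed 0.1.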

Additional observations from a re-analysis of the deposited data

Results flagged for a closer look

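In each group of 4 to 6 libraries the highest and lowest value of every gene was compared with the rest by Dixon's test, over 83 groups. It marked 10 values, and chance alone marks about 1 in 20 groups.

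Ucn3 in frontal cortex rests on a few reads. Intruder replicate 1 at 120 min was at 0.548 CPM from 31 reads, against at most 0.0656 in the other 5. Control replicate 3 at 120 min was at 0.106 CPM from 5 reads, intruder replicate 3 at 60 min at 0.0465 CPM from 2 reads, and control replicate 5 at 60 min at 0.0206 CPM from 1 read, with all others of their groups at 0.

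Crhr2 in frontal cortex at 120 min was at 2.02 CPM in that same intruder replicate 1, against 0.817 to 1.02 in the others, and at 0.549 CPM in control replicate 4, against 0.886 to 1.01. In hypothalamus at 120 min Crhr2 was low in control replicate 6, at 4.99 CPM against 6.81 to 7.42. Crhr1 was high in frontal cortex control replicate 6 at 60 min (42.8 CPM against 33.1 to 35.8) and in hypothalamus control replicate 2 at 120 min (10.3 CPM against 9.19 to 9.45). Crh was high in frontal cortex control replicate 5 at 30 min, at 11.2 CPM against 6.18 to 7.40.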

How the results depend on the processing

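For intruder against control, the 42 member tests had 1585 alternative values. None was called (smallest adjusted p 0.294), and 68 of them, in 22 tests, had the other sign. The replicate block called 0 members, as did the fit without it, but moved the calls over all genes in amygdala at 120 min from 93 to 199 and in hypothalamus at 120 min from 34 to 6; equal numbers were not found to pair the libraries. Over all genes the amygdala count was 413 with DESeq2, 12 without a filter, 149 with the marker score, 0 with the index as a term, 0 from the 2 groups alone and 6 to 218 without 1 library; the hypothalamus count was 90 with DESeq2, 0 from the 2 groups alone and 19 to 53 without 1 library. DESeq2 called 1 gene for the average in amygdala and 2 in hypothalamus, 6 between regions at 30 and at 120 min, and leaving out 1 library gave up to 7 in amygdala at 60 min and 20 in frontal cortex at 120 min. For the difference between times, DESeq2 called 157 genes in amygdala (0 by edgeR, 14 with the marker score, 0 to 60 without 1 library), 4 in frontal cortex (0, with 0 to 1) and 23 in hypothalamus (2, with 0 to 7). Over the 3 times, the 40 genes called in amygdala controls became 183 with DESeq2, 134 with the marker score, 20 without a filter and 16 to 133 without 1 library, and the 32 in hypothalamus controls became 165, 79, 23 and 9 to 74. In intruder libraries the 2225 amygdala genes became 3982 with the marker score and 1173 to 2546 without 1 library, and the 263 hypothalamus genes became 579 with DESeq2 and 135 to 334 without 1 library. With the index as a term, 0 amygdala genes were called in controls and 2 in intruder libraries. Between 30 and 60 min, leaving out 1 library gave 12 to 186 genes in amygdala controls (23 with all) and 535 to 1570 in intruder libraries (1281). Between 30 and 120 min in hypothalamus it gave 10 to 57 in controls (31) and 162 to 475 in intruder libraries (341). Over the 3 times, the count of members called in frontal cortex controls was 0 and became 1 (Crhbp) with DESeq2 or the marker score and 0 to 1 without 1 library. In amygdala intruder libraries it was 0, became 2 (Crh and Ucn3) with the marker score, and was 0 to 1 without 1 library (Crhr1 without 60 min replicate 4). In frontal cortex intruder libraries it was 1 and became 2 without a filter (Ucn3 and Crhbp) or with the marker score (Crhr1 and Crhbp). The cause of these changes was not tested. The animal block raised the count between hypothalamus and frontal cortex in controls from 4 to 5, and changed no other count between regions. The index term could not be fitted in frontal cortex at 120 min, nor for most comparisons of times in frontal cortex and hypothalamus. Depth limits Ucn3 in frontal cortex, where single reads decide its value. The marker score as a term and the split of hypothalamus libraries at the arcuate gap were chosen after seeing the data.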
